A study of Rattus norvegicus with 16 samples.

Results

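The genes of the eukaryotic translation initiation factors were followed in rat liver through a long fast and the meal that ended it. Members were all rows of the expression table with exactly 1 gene symbol in the array annotation and a symbol that starts with Eif and a digit from 1 to 6, which gave 32 genes among 13215 genes that have a row to themselves, each with a single row. RefSeq lists 60 protein-coding genes whose symbols match, and the other 28 are not analysed here. It also lists near-named copies of Eif1a, Eif3e, Eif4a1 and Eif5, so the signal of these members is uncertain where copies share probes. The rule takes in the factors themselves, the 4E-binding proteins that hold 1 of them back and the kinases that phosphorylate another, and it used no measured level. The liver RNA came from 16 male Sprague Dawley rats, hybridised to Affymetrix Rat Exon 1.0 ST arrays with 1 array per animal. The animals had been divided at random into 4 groups of 4: fed rats, rats fasted into phase 2 (P2), rats fasted into phase 3 (P3), and rats that were fasted into phase 3 and then had food again for 2 days (P3r2). All 4 groups share strain and sex, and the sources used here give neither ages nor lengths of the fast. In phase 2 of a long fast body fat is the main fuel and protein is spared, and in phase 3 body protein is broken down faster.

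Initiation brings the small ribosomal subunit, the initiator tRNA and an mRNA together. The complex eIF2 carries the initiator tRNA with GTP, eIF2B recharges eIF2 after each round, eIF3 scaffolds the small subunit, and eIF4F (the cap binder eIF4E, the scaffold eIF4G and the helicase eIF4A) opens the 5′ end of the mRNA. Cells slow protein synthesis at a pair of these points when amino acids or insulin are short: kinases phosphorylate the alpha subunit of eIF2, and 4E-binding proteins, released when mTORC1 is inactive, take eIF4E away from eIF4G. Both controls act on the proteins, and the arrays measured only mRNA.

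Promoter sequence is shown for the members with the largest differences and for examples that carry a motif, so that the groups of genes that moved together can be set beside their upstream DNA. The windows are the 250 bases before the RefSeq start of each gene, written 5′ to 3′ along the gene in build GRCr8, and 28 of the 32 members had one. The motifs searched, on both strands, were CACGTG, the E-box that Myc and the clock factors bind, TGACGTCA, the cyclic AMP response element, and TGATGNAA, the amino acid response element that ATF4 binds. Capitals mark CACGTG. Eif2s1, Eif4a1 and Eif3d had the largest rises at phase 3 among these members and none of the motifs, Eif4e and Eif3b rose at phase 3 and hold CACGTG, and Eif2ak4 was the member that fell.
Eif2s1 (chr6:103405630-103405879, plus strand): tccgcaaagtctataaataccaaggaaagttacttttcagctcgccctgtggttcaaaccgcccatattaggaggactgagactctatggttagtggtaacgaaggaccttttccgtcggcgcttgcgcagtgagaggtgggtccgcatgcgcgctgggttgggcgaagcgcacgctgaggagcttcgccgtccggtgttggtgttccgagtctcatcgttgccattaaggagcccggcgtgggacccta
Eif4a1 (chr10:54888603-54888852, minus strand): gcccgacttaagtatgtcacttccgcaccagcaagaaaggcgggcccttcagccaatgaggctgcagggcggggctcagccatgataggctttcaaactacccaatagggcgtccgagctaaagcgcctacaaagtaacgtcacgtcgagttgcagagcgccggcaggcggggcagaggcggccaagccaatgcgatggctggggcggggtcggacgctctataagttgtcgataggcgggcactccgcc
Eif3d (chr7:111432741-111432990, minus strand): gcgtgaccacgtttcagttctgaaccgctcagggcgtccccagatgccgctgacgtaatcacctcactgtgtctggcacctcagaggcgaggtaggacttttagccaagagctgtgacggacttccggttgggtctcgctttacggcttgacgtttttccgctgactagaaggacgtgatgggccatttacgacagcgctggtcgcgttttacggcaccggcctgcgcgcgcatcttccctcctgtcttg
Eif4e (chr2:229740503-229740752, plus strand): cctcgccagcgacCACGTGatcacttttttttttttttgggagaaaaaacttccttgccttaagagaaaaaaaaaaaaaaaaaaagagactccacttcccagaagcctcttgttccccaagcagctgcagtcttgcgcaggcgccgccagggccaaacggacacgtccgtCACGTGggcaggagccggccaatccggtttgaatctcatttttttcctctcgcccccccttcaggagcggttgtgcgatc
Eif3b (chr12:19334769-19335018, minus strand): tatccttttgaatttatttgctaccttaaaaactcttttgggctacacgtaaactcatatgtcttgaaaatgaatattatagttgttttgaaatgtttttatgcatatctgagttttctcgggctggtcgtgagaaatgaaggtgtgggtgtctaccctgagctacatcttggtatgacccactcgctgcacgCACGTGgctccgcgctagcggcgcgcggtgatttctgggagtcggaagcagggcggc
Eif2ak4 (chr3:125809957-125810206, plus strand): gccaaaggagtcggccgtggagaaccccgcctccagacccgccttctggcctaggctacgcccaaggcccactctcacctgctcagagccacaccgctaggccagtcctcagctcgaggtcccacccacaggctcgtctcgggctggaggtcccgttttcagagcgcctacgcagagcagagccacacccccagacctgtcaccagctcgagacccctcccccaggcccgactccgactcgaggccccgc
CACGTG was present in 6 of 28 members (21.4%) and in 5.59% of the 33469 rat promoters of the same window. Its first base lay 80 and 237 bases before the start in Eif4e, 57 in Eif3b, 168 in Eif4h, 54 in both Eif1b and Eif4g1, and 171 and 196 in Eif5a2. Among the 19 members with a promoter that rose at phase 3, 3 held it, and the other 3 holders were not called in that comparison. TGACGTCA was found in 0 of 28 members against 1.59% of all promoters. TGATGNAA was found in 1 member, Eif2s2 (first base 36 bases before the start), against 3.40% of all promoters. A match describes letters, not binding.

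Values below are log2 signals as deposited, and they compare a gene between livers, never 1 gene with another. Differences between groups are on the log2 scale, ± their standard error, from a limma fit over all 16 arrays, and "called" means an adjusted p below 0.05 after Benjamini-Hochberg adjustment over 18884 rows. Arrays correlated at 0.966 to 0.992 within groups, and their medians lay between 4.34 and 4.46. Of the members, 31 had a mean signal at or above that of the median row, and the exception was Eif5a2. The array fed 2 stood apart: it had the narrowest spread of values (SD 2.12, against 2.29 to 2.35 in the other fed arrays) and the lowest fed value in 27 of the 32 members, so the count of each comparison with fed livers is given with and without it. Its mean over all rows at or above the median signal was low too (6.34, against 6.63 to 6.72 in the other fed arrays). The narrow arrays P2 4 (SD 2.14) and P3 3 (SD 2.18) held the lowest value of their group in 16 and 7 members and the highest in 11 and 14. The shares of all rows lowest or highest in these arrays are not given here. Hepatocyte markers were bright and nearly level, their summed log2 signal lying at 15.2 to 15.5 in fed livers, 15.3 to 15.5 in P2 livers, 15.4 to 15.5 in P3 livers and 15.4 in all P3r2 livers (6 of 7 markers measured). The summed signal of 5 of 6 stellate cell markers lay at 9.53 to 10.25 in fed livers, 9.01 to 9.49 in P2 livers, 9.73 to 11.34 in P3 livers and 9.17 to 9.82 in P3r2 livers, and its part in the results was not tested. At P3 against fed, 1 of these 5 was called higher and 2 lower, and of the hepatocyte markers 2 were higher and 1 lower. No marker of Kupffer cells (6 of 7 measured), cholangiocytes (2 of 4), T and B cells (3 of 6) or neutrophils (3 of 4) was called in any comparison, and markers of endothelial and red cells were not analysed here. In whole liver, fewer cells of a type and less RNA per cell cannot be told apart.

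**Figure D1:**
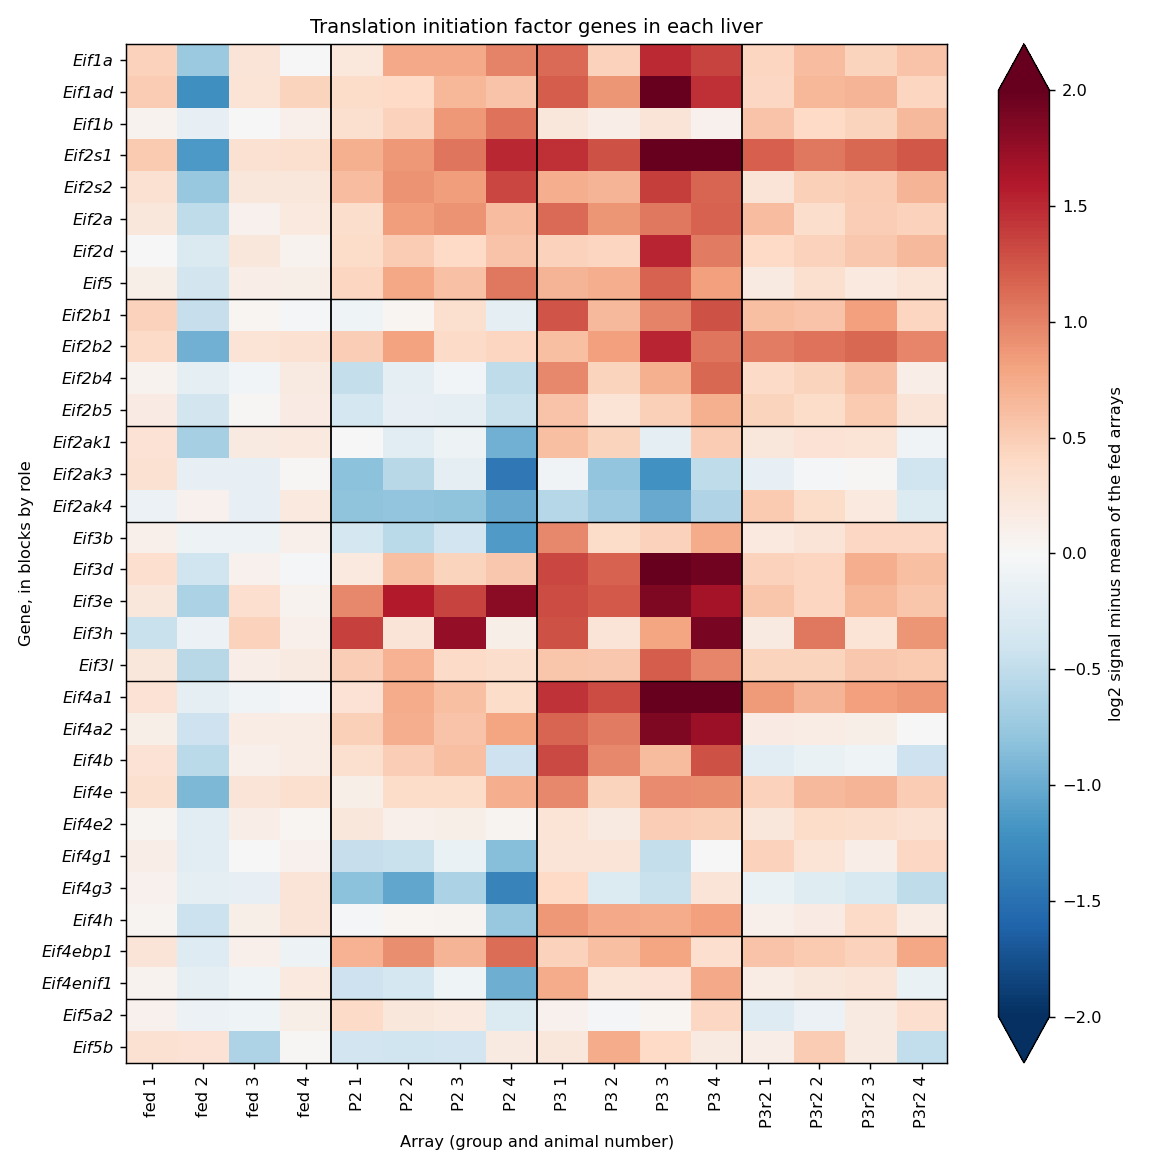
Log2 signal of the 32 genes (vertical, in blocks by role from eIF2 and start site selection at the top to subunit joining at the bottom) in each of the 16 arrays (horizontal), as the difference from the mean of the fed arrays. The P3 columns are red in most genes, the kinase genes Eif2ak3 and Eif2ak4 are blue in P2 and P3, and fed 2 is paler or bluer than the other fed arrays.

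At phase 3, most initiation factor genes were higher than in fed livers. Of the 32 members, 22 rose (68.8%) and 1 fell, where 11.3% of all rows rose and 8.07% fell. Among the 9442 brighter rows, those at or above the median signal, 20.8% rose and 14.5% fell. The median difference of the members was 0.82, against 0.03 over all rows and 0.07 over the brighter rows. In 23 of the 32 members all 4 P3 values lay above all 4 fed values, as they did in 11.5% of all rows. Without fed 2, 21 members rose, against 9.35% of all rows, with a median of 0.67. Without fed 2, P2 4 and P3 3 together, a choice made after seeing the data, 21 rose, against 10.8% of all rows, with a median of 0.58. In a fit of the P3 and fed arrays alone 17 rose, and the 5 no longer called were Eif1ad, Eif2b2, Eif2b5, Eif4e and Eif4e2 (adjusted p of 0.051 to 0.098). The share of all rows called in that fit is not given here, so its count cannot be set beside the 11.3%. The rises took in 7 of 8 genes of start site selection and the ternary complex, all 4 measured eIF2B subunits, 4 of 5 eIF3 subunits, 6 of 8 genes of eIF4F and its helicase partners and 1 of 2 binders of eIF4E. No eIF2 alpha kinase gene rose (0 of 3), and neither did Eif5a2 or Eif5b.

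Among genes of eIF2 and start site selection, Eif2s1 (transcript cluster 7299626), the alpha subunit that carries the regulatory phosphorylation site, differed most. Its log2 signal was 8.69, 7.02, 8.48 and 8.50 in fed livers, 8.88, 9.04, 9.24 and 9.68 in P2 livers, 9.63, 9.44, 10.86 and 10.46 in P3 livers and 9.36, 9.22, 9.32 and 9.41 in P3r2 livers. All P2, P3 and P3r2 values lay above the highest fed value, and fed 2 lay far below the other fed arrays. The difference of P3 from fed was 1.93 ± 0.35 (adjusted p = 0.00077), a 3.80-fold higher level, while those of P2 (1.04 ± 0.35, adjusted p = 0.063) and P3r2 (1.16 ± 0.35, adjusted p = 0.097) missed the threshold. The low value of fed 2 enlarges all of these. Over the alternative limma fits of the last section the P3 difference ran from 1.29 to 2.15 (highest adjusted p = 0.017). Eif2s2, the beta subunit, measured 9.52, 8.46, 9.44 and 9.45 in fed livers, 9.84, 10.11, 10.06 and 10.55 in P2 livers, 9.95, 9.89, 10.60 and 10.38 in P3 livers and 9.47, 9.69, 9.72 and 9.90 in P3r2 livers. It was called at both phases, with 0.92 ± 0.23 (adjusted p = 0.018) for P2 and 0.99 ± 0.23 (adjusted p = 0.0056) for P3 against fed, and the P3 and P2 values overlapped. The P2 call was lost without P2 4 (0.79, adjusted p = 0.066). Eif5, which makes eIF2 hydrolyse its GTP once the start codon is found, had its group means in the same order: 8.29, 7.81, 8.30 and 8.28 in fed livers, 8.59, 8.95, 8.75 and 9.22 in P2 livers, 8.85, 8.89, 9.36 and 8.99 in P3 livers and 8.35, 8.49, 8.37 and 8.44 in P3r2 livers. Its difference from fed was 0.71 ± 0.15 (adjusted p = 0.0083) at P2 and 0.85 ± 0.15 (adjusted p = 0.00069) at P3, and at P3r2 it was -0.61 ± 0.15 (adjusted p = 0.0094) against P3.

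Eif2a encodes a single protein outside the eIF2 complex that can also bring initiator tRNA. The gene had 6.96, 6.24, 6.82 and 6.95 in fed livers, 7.09, 7.57, 7.64 and 7.36 in P2 livers, 7.87, 7.63, 7.79 and 7.93 in P3 livers and 7.37, 7.09, 7.24 and 7.21 in P3r2 livers. P2 and P3 livers stood above fed livers without overlap, by 0.67 ± 0.16 (adjusted p = 0.014) and 1.06 ± 0.16 (adjusted p = 0.00015), and the P3r2 mean lay between those of fed and P3 livers. Eif2d, another tRNA carrier, rose at P3 (0.86 ± 0.20, adjusted p = 0.0046), as did Eif1a (1.11 ± 0.25, adjusted p = 0.0047), which helps the scanning subunit find the start codon, and Eif1ad (1.45 ± 0.33, adjusted p = 0.0046), a protein with an eIF1A domain. Eif1b, a close relative of the start codon selector eIF1, followed another course, with 6.26, 6.04, 6.19 and 6.31 in fed livers, 6.51, 6.66, 7.07 and 7.29 in P2 livers, 6.42, 6.33, 6.46 and 6.28 in P3 livers and 6.76, 6.60, 6.65 and 6.85 in P3r2 livers. It was highest at phase 2 (0.69 ± 0.14, adjusted p = 0.0071 against fed), and P3 livers, which overlapped fed livers, stood below P2 livers (-0.51 ± 0.14, adjusted p = 0.017).

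The eIF2B genes encode the exchange factor that eIF2 needs for each new round. None of the 4 measured subunits was called at phase 2 (differences of -0.30 to 0.53), and all 4 rose at phase 3, Eif2b2 and Eif2b5 not in the fit of the P3 and fed arrays alone (adjusted p of 0.073 and 0.064). Eif2b1, the alpha subunit, measured 7.63, 6.70, 7.20 and 7.14 in fed livers, 7.09, 7.21, 7.50 and 6.99 in P2 livers, 8.42, 7.82, 8.16 and 8.45 in P3 livers and 7.78, 7.75, 8.0 and 7.60 in P3r2 livers. P3 exceeded both P2 (1.02 ± 0.19, adjusted p = 0.00093) and fed livers (1.04 ± 0.19, adjusted p = 0.00072) without overlap. Eif2b4, the delta subunit, had 6.64, 6.38, 6.53 and 6.75 in fed livers, 6.10, 6.40, 6.52 and 6.07 in P2 livers, 7.54, 7.02, 7.29 and 7.73 in P3 livers and 6.96, 7.02, 7.16 and 6.70 in P3r2 livers, and its P2 and fed values overlapped. The step between the 2 phases was 1.12 ± 0.16 (adjusted p = 0.0001). The catalytic epsilon subunit gene Eif2b5 rose less, by 0.51 ± 0.13 (adjusted p = 0.012) against fed and 0.79 ± 0.13 (adjusted p = 0.00045) against P2. Eif2b2, the beta subunit, had 6.53, 5.18, 6.42 and 6.45 in fed livers, 6.64, 6.95, 6.53 and 6.57 in P2 livers, 6.75, 6.97, 7.67 and 7.21 in P3 livers and 7.17, 7.23, 7.30 and 7.13 in P3r2 livers. The P3r2 minus P3 difference was 0.06 ± 0.25 (adjusted p = 0.93), and re-fed livers exceeded fed livers by 1.06 ± 0.25 (adjusted p = 0.037).

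None of the 3 measured kinase genes was called higher at phase 3. Eif2ak4 encodes GCN2, the kinase that senses uncharged tRNA when amino acids run short, and its transcript cluster 7231484 measured 5.34, 5.55, 5.29 and 5.65 in fed livers, 4.65, 4.67, 4.65 and 4.45 in P2 livers, 4.89, 4.73, 4.45 and 4.86 in P3 livers and 5.98, 5.83, 5.66 and 5.19 in P3r2 livers. Fasted livers of both phases lay below all fed and all re-fed livers. Eif2ak4 fell by 0.85 ± 0.16 at P2 (adjusted p = 0.0033) and by 0.73 ± 0.16 at P3 (adjusted p = 0.003) against fed, and re-fed livers exceeded P3 livers by 0.93 ± 0.16 (adjusted p = 0.00042). Eif2ak3, the gene of PERK, the kinase that senses unfolded protein in the endoplasmic reticulum, averaged 7.56 ± 0.22 in fed livers, 6.81 ± 0.52 in P2 livers, 6.92 ± 0.48 in P3 livers and 7.42 ± 0.19 in P3r2 livers (SD, n = 4 each). Its P2 and fed values did not overlap, but neither P2 (-0.75 ± 0.25, adjusted p = 0.06) nor P3 (-0.64 ± 0.25, adjusted p = 0.093) was called against fed. After quantile normalization both were called (-0.62 at P2 with adjusted p = 0.037 and -0.77 at P3 with adjusted p = 0.007). Eif2ak1, the gene of the heme-regulated kinase, was not called in any comparison, and its P3 minus fed difference of 0.34 ± 0.24 had a 95% interval of -0.17 to 0.86.

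Of the 5 measured genes of eIF3, the largest factor, 1 rose and 1 fell at phase 2, and 4 rose at phase 3. Eif3d, whose product can bind the cap of some mRNAs itself, is transcript cluster 7329550 and had 8.61, 7.87, 8.35 and 8.25 in fed livers, 8.47, 8.87, 8.71 and 8.80 in P2 livers, 9.61, 9.45, 10.52 and 10.19 in P3 livers and 8.73, 8.70, 8.99 and 8.87 in P3r2 livers. P3 livers stood above all others, 1.68 ± 0.21 (adjusted p = 2.6e-05) over fed and 1.23 ± 0.21 (adjusted p = 0.00048) over P2, and P3r2 was -1.12 ± 0.21 (adjusted p = 0.0011) against P3. Eif3e, a subunit at the edge of the complex, rose at both phases, with 8.28, 7.42, 8.38 and 8.12 in fed livers, 9.02, 9.64, 9.40 and 9.85 in P2 livers, 9.36, 9.28, 9.92 and 9.72 in P3 livers and 8.60, 8.48, 8.72 and 8.60 in P3r2 livers. It was the largest rise of any member at P2 (1.43 ± 0.21, adjusted p = 0.00098), and P3 minus P2 was 0.09 ± 0.21 with a 95% interval of -0.36 to 0.55. Eif3b, a core scaffold subunit, was low at phase 2 and high at phase 3, measuring 8.63, 8.43, 8.42 and 8.63 in fed livers, 8.17, 7.99, 8.15 and 7.39 in P2 livers, 9.49, 8.89, 8.99 and 9.27 in P3 livers and 8.72, 8.79, 8.94 and 8.94 in P3r2 livers. It was lower in P2 than in fed livers (-0.60 ± 0.17, adjusted p = 0.029) and higher in P3 than in fed livers (0.63 ± 0.17, adjusted p = 0.012). The step of 1.24 ± 0.17 (adjusted p = 6.9e-05) was the largest of any member between the 2 phases. The fall at P2 was not called without P2 4 (-0.42, adjusted p = 0.08), nor without fed 1, fed 4 or P2 2 (adjusted p of 0.072, 0.079 and 0.053). Eif3l rose at P3 (0.82 ± 0.18, adjusted p = 0.0032). Eif3h averaged 8.38 ± 0.70 in P3 and 7.32 ± 0.38 in fed livers (SD, n = 4 each) and was not called (1.05 ± 0.39, adjusted p = 0.075).

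In eIF4F, the helicase genes rose. Eif4a1, the main gene of the DEAD-box helicase eIF4A that unwinds the 5′ end of mRNAs, is transcript cluster 7079103 and measured 9.18, 8.71, 8.83 and 8.87 in fed livers, 9.19, 9.64, 9.50 and 9.26 in P2 livers, 10.34, 10.21, 10.89 and 10.95 in P3 livers and 9.75, 9.59, 9.73 and 9.77 in P3r2 livers. All P3 values lay above those of every other group, and all P3r2 values lay above all fed values. P3 exceeded fed by 1.70 ± 0.17 (adjusted p = 2.6e-06), a 3.25-fold higher level, and P2 by 1.20 ± 0.17 (adjusted p = 9.3e-05). Eif4a2, its close paralog, rose at both phases, with 10.27, 9.74, 10.31 and 10.32 in fed livers, 10.63, 10.90, 10.74 and 10.94 in P2 livers, 11.33, 11.20, 12.02 and 11.88 in P3 livers and 10.32, 10.30, 10.28 and 10.15 in P3r2 livers. Both the P2 (0.64 ± 0.18, adjusted p = 0.028) and the P3 difference from fed (1.45 ± 0.18, adjusted p = 2.1e-05) were called, the first not without fed 2, P2 2 or P2 4 (adjusted p of 0.066, 0.07 and 0.084), and re-fed livers overlapped fed livers after a fall of 1.34 ± 0.18 from P3 (adjusted p = 4.9e-05). Both measured RNA-binding partners that stimulate the helicase rose as well. Eif4b had 9.20, 8.36, 9.01 and 9.06 in fed livers, 9.23, 9.40, 9.51 and 8.49 in P2 livers, 10.23, 9.87, 9.55 and 10.19 in P3 livers and 8.70, 8.78, 8.82 and 8.49 in P3r2 livers, with P3 above the other groups (1.05 ± 0.23, adjusted p = 0.0031 over fed) and re-fed livers -1.26 ± 0.23 (adjusted p = 0.00081) against P3. Eif4h rose by 0.80 ± 0.18 (adjusted p = 0.0036) at P3.

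At phase 3 the cap binder gene rose, and neither measured scaffold gene was called. Eif4e, the cap-binding subunit, averaged 9.09 ± 0.25 in P3 and 8.27 ± 0.60 in fed livers (SD, n = 4 each), a difference of 0.82 ± 0.23 (adjusted p = 0.02). Without fed 2 the Eif4e difference was 0.52 (adjusted p = 0.024), and it was not called without P3 1, P3 3 or P3 4 (adjusted p of 0.052, 0.051 and 0.055) or in the fit of the P3 and fed arrays alone (0.096). Eif4e2, a relative that binds the cap without eIF4G, differed by 0.35 ± 0.10 (adjusted p = 0.02), which was lost without fed 2, P3 3 or P3 4 (adjusted p of 0.062, 0.062 and 0.069) and after quantile normalization (0.24). The scaffold gene Eif4g1 did not differ between P3 and fed livers beyond its spread (0.01 ± 0.17, 95% interval -0.36 to 0.38). Eif4g3, the gene of another scaffold, had 6.53, 6.25, 6.29 and 6.71 in fed livers, 5.62, 5.40, 5.81 and 5.11 in P2 livers, 6.84, 6.17, 5.99 and 6.70 in P3 livers and 6.31, 6.21, 6.14 and 5.93 in P3r2 livers. P2 livers lay below all other livers, -0.96 ± 0.19 (adjusted p = 0.0055) against fed, and P3 exceeded P2 by 0.94 ± 0.19 (adjusted p = 0.002). Its P3 minus fed difference was -0.02 ± 0.19, with a 95% interval of -0.43 to 0.39.

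Of the binders of eIF4E, Eif4ebp1, the gene of the repressor 4E-BP1 that mTORC1 inactivates, was highest in phase 2. It measured 8.13, 7.62, 7.97 and 7.77 in fed livers, 8.56, 8.81, 8.55 and 8.99 in P2 livers, 8.34, 8.48, 8.66 and 8.20 in P3 livers and 8.45, 8.40, 8.34 and 8.65 in P3r2 livers. All fasted and re-fed livers lay above all fed livers. The differences from fed were 0.86 ± 0.14 (adjusted p = 0.0017) at P2, 0.55 ± 0.14 (adjusted p = 0.011) at P3 and 0.59 ± 0.14 (adjusted p = 0.037) at P3r2, and the last was not called without fed 2 (adjusted p = 0.12) nor without fed 3, fed 4 or any 1 of the P3r2 arrays (0.053 to 0.1). The P3 call was lost after quantile normalization (0.47, adjusted p = 0.07). Eif4enif1, whose product 4E-T carries eIF4E into the nucleus, differed between the phases (0.97 ± 0.18, adjusted p = 0.00084) and missed the threshold against fed at P3 (0.52 ± 0.18, adjusted p = 0.054). Eif5b, which joins the 2 ribosomal subunits, measured 5.15, 5.12, 4.22 and 4.87 in fed livers, 4.46, 4.44, 4.46 and 5.03 in P2 livers, 5.06, 5.58, 5.23 and 5.02 in P3 livers and 4.98, 5.35, 5.02 and 4.35 in P3r2 livers, and its groups overlapped in all 5 comparisons. Eif5a2, a minor relative of eIF5A, was dim (mean 3.08, below the median row), and it was called in no comparison.

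**Figure D2:**
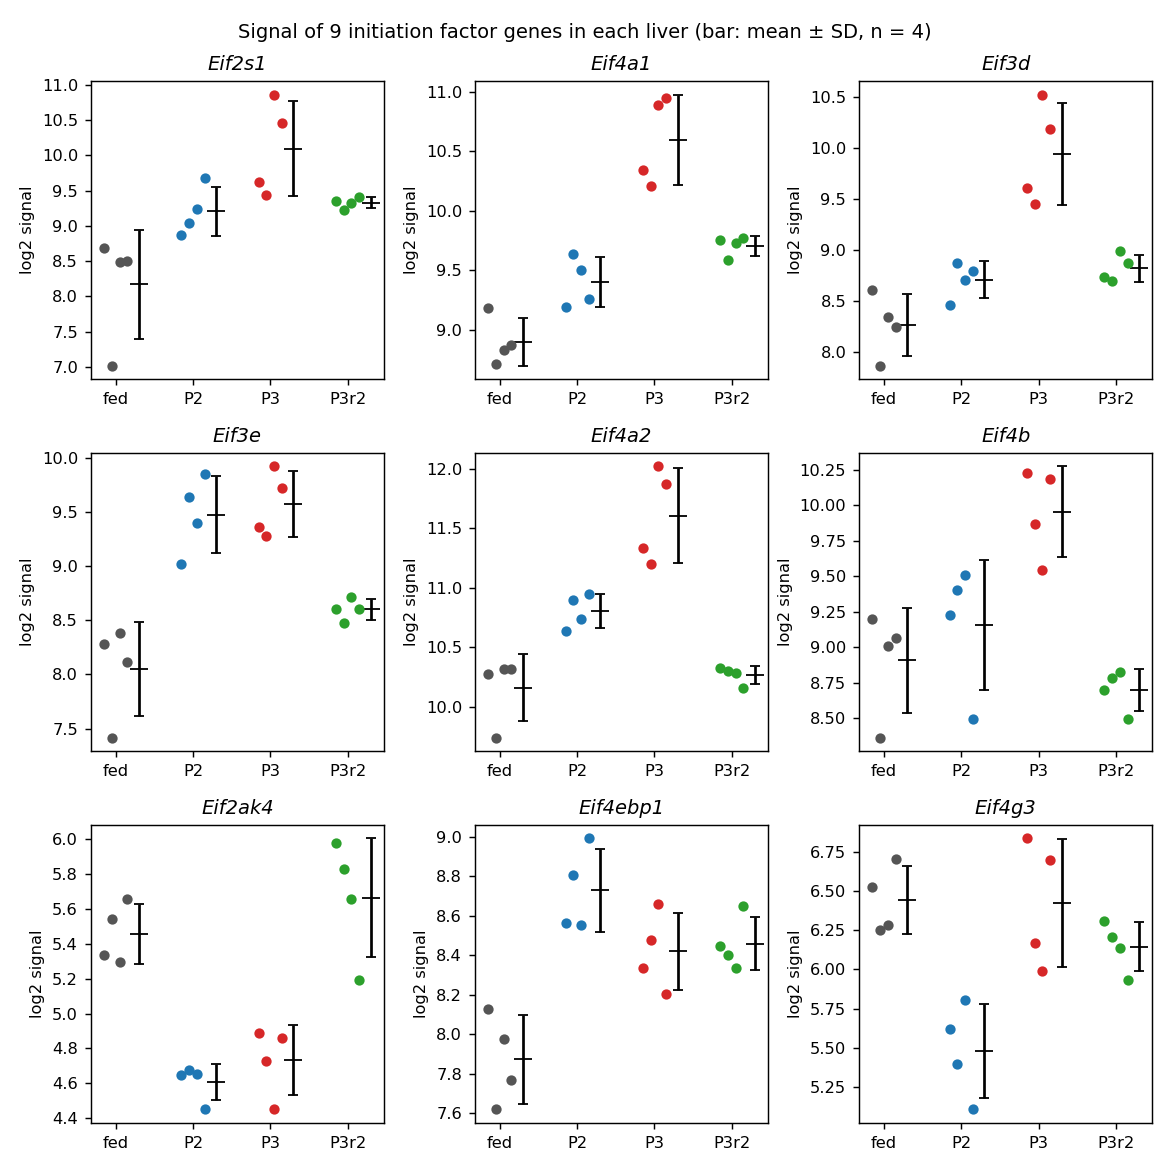
Log2 signal (vertical) of 9 genes in each liver, by group (horizontal, n = 4 each), with the mean and SD as a bar beside the points. Eif2s1, Eif4a1, Eif3d, Eif4a2 and Eif4b are highest in P3, Eif3e is high in P2 and P3, Eif2ak4 is low in both fasted groups, Eif4ebp1 is lowest in fed livers and Eif4g3 is lowest in P2.

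At phase 2 the members were divided. Of the 32, 7 rose and 3 fell against fed livers, where 6.13% of all rows rose and 6.58% fell. The 7 were Eif1b, Eif2s2, Eif2a, Eif5, Eif3e, Eif4a2 and Eif4ebp1, and the 3 were Eif2ak4, Eif3b and Eif4g3. The median difference was 0.42 with fed 2 and 0.09 without it, against 0.05 and 0.04 over all rows, while the count without fed 2 was 6 higher and 4 lower, where 4.69% of all rows were higher and 8.2% lower. Of the brighter rows, 9.36% rose and 12.4% fell at phase 2 with all arrays, and their median difference was -0.05. In a fit of the P2 and fed arrays alone, Eif2s2, Eif2a and Eif3b were not called (adjusted p of 0.056, 0.065 and 0.071). Fold changes at phase 2 followed gene length across the 8260 brighter rows with a known length (Spearman correlation -0.38) and across the 32 members (-0.34). A gene's span served as its length, and genes are not independent replicates. Across the members the correlation was -0.37 at P3 and -0.36 at P3r2 against fed, where it was -0.08 and -0.10 across the brighter rows. With the length trend taken out of each array, 10 members rose and 6 fell at phase 2, where 9.24% and 10.8% of 13286 rows did.

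Between the phases, 11 members were higher at phase 3 than at phase 2 and 1, Eif1b, was lower (not called without P2 3, P2 4 or P3 4), where 13.5% of all rows were higher and 8.53% lower, and 25.1% and 13.7% of the brighter rows. The 11 were Eif2b1, Eif2b4, Eif2b5, Eif3b, Eif3d, Eif4a1, Eif4a2, Eif4b, Eif4g3, Eif4h and Eif4enif1. The Eif4b call was lost without P2 4, P3 1 or P3 4 (adjusted p of 0.06, 0.061 and 0.06), and the Eif4b and Eif1b calls in a fit of the P3 and P2 arrays alone (0.056 and 0.081). Among the 22 genes that rose at P3 against fed, 9 were also higher than at P2, and 6 had been called higher at P2. The 22 were picked for high P3 and low fed values, and the 9 rest on the same P3 livers and the 6 on the same fed livers. Part of both counts is therefore built in, and no share of all rows picked in the same way is given here. With fed 2 left out of the shared fit, 17 members were called higher at P3 than at P2, where 14.5% of all rows were, the 6 added being Eif1ad, Eif2s1, Eif2a, Eif2b2, Eif2ak1 and Eif4e.

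**Figure D3:**
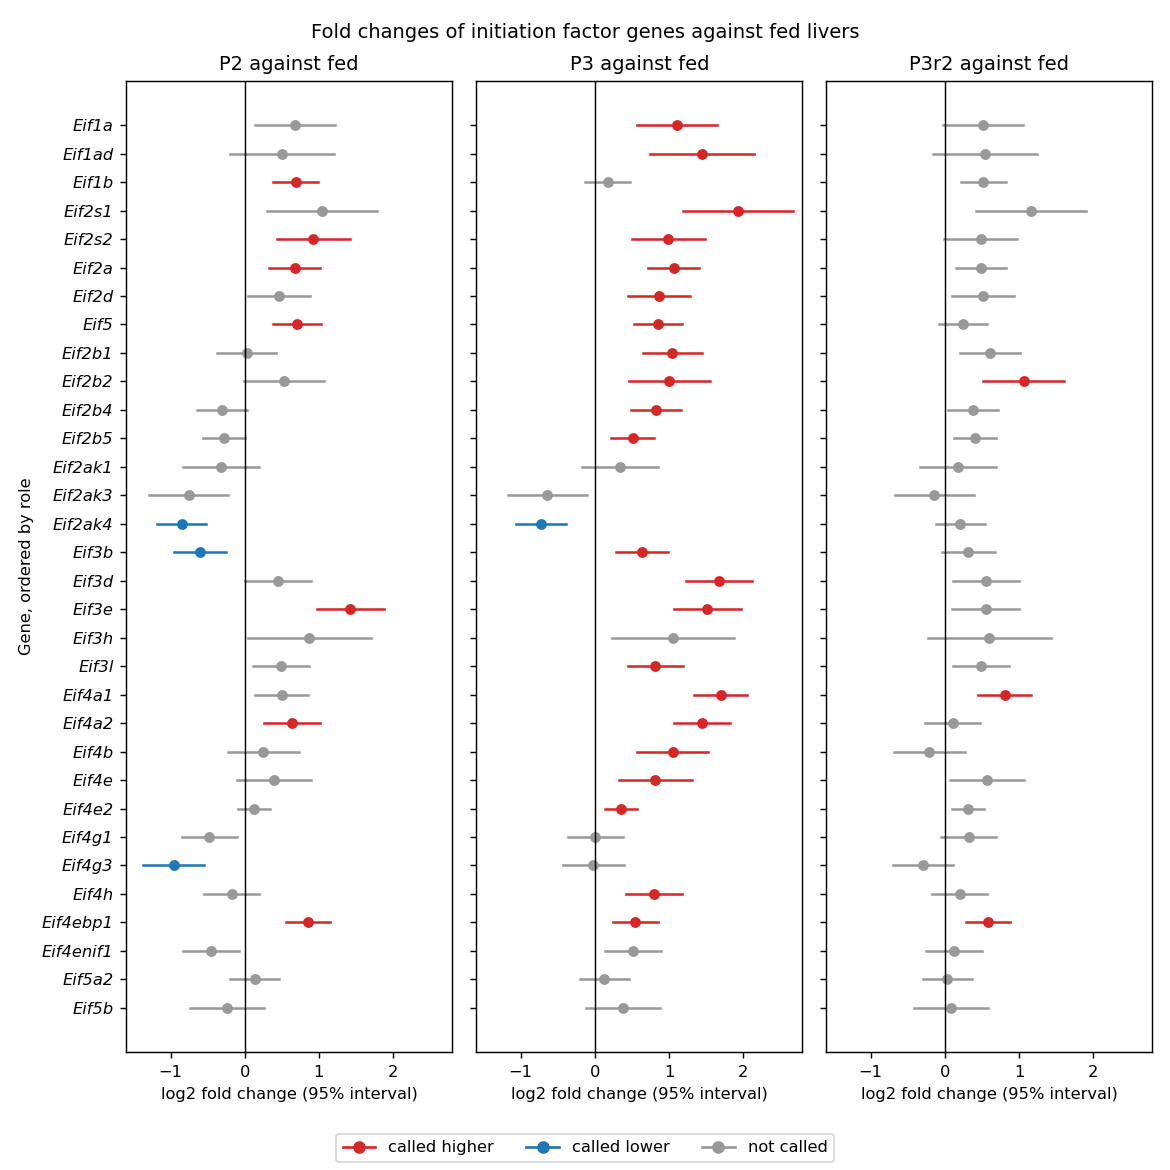
Log2 fold change of each gene (vertical, ordered by role) against the fed livers, with its 95% interval (horizontal), for P2, P3 and P3r2. At P3, 22 genes are called higher and Eif2ak4 lower, and at P3r2 only Eif2b2, Eif4a1 and Eif4ebp1 are called.

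After 2 days of food, 8 members were lower than in P3 livers (Eif2a, Eif5, Eif3d, Eif3e, Eif4a1, Eif4a2, Eif4b and Eif4h) and 1 was higher (Eif2ak4), where 7.94% of all rows were lower and 10.5% higher, and 14% and 19.1% of the brighter rows. The Eif2a call was lost without P3 4 or P3r2 2 (adjusted p of 0.053 and 0.055), and the Eif4h call without any 1 of P3 1, P3 4, P3r2 1, P3r2 2 and P3r2 4 (0.057 to 0.069). All 8 were among the 22 that had risen at P3. Of those 22, 19 had a P3r2 mean between the fed and the P3 mean, and the median share of the P3 minus fed difference that was absent in re-fed livers was 51.9% (range -6.99% for Eif4ebp1 to 120.0% for Eif4b). Both differences in that share use the same P3 livers, and the 22 were picked for being high in P3. Some movement back towards fed livers is therefore built into the share, and into the overlap of the 8 with the 22. The share includes fed 2, and no share without that array is given here. Against fed livers, 3 members were still higher (Eif2b2, Eif4a1 and Eif4ebp1) and 0 lower, where 2.21% of all rows were higher and 0.514% lower, and limma's unadjusted p was below 0.05 for 15 of the 32, as it was for 14.6% of all rows and 23.6% of the brighter rows. Of the brighter rows, 4.16% were called higher and 0.9% lower. Without fed 2, 1 member remained called (Eif2b2), where 1.14% of all rows were higher. Without P3r2 2, 1 did (Eif4a1), and without P3r2 1, P3r2 3 or P3r2 4 there was none. The median difference was 0.44 with fed 2 and 0.27 without it, against 0.02 and 0.01 over all rows and, with fed 2, 0.10 over the brighter rows. With fed 2 included, 29 of the 32 fitted differences were above 0, as were 54.6% of those over all rows. Those of Eif2ak3, Eif4b and Eif4g3 were below 0 with and without fed 2, and without it those of Eif2ak1, Eif4a2 and Eif5a2 were below 0 as well. The share of all rows above 0 without fed 2 is not given here.

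**Figure D4:**
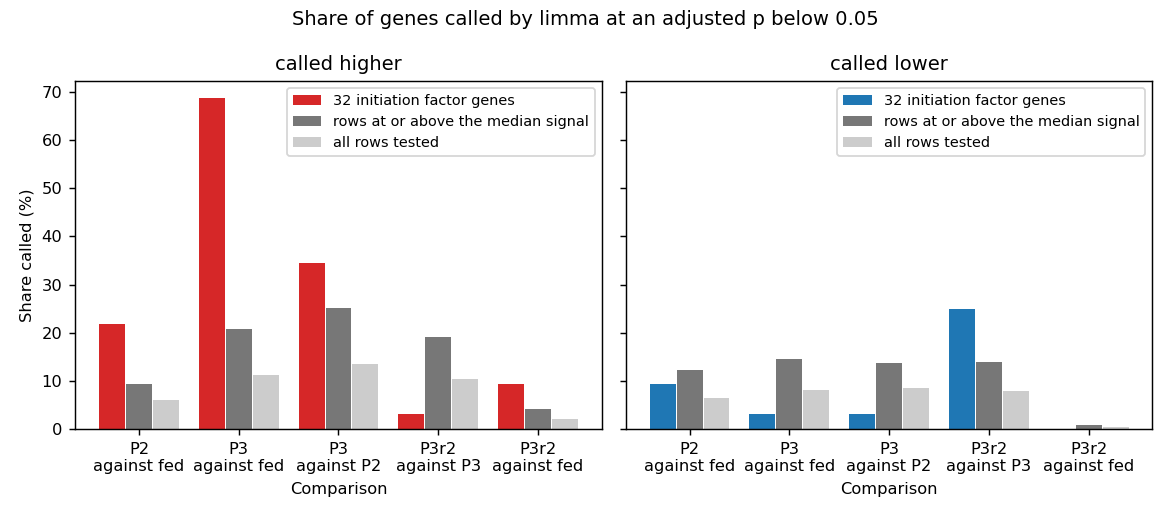
Share of genes called higher (left) and lower (right) in each comparison, in percent, for the 32 initiation factor genes, for the 9442 rows at or above the median signal and for all 18884 rows. The bar of the initiation factors at P3 against fed stands at 68.8% higher, beside 20.8% and 11.3%.

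Over the 4 groups, the highest mean was in P3 livers for 24 members, in P2 for 3, in P3r2 for 3 and in fed for 2, and the lowest was in fed livers for 20, in P2 for 11, in P3r2 for 1 and in P3 for 0. The 2 members highest in fed livers were Eif2ak3 and Eif4g3. In all, 26 members were called in at least 1 comparison, and the 6 called in none were Eif2ak1, Eif2ak3, Eif3h, Eif4g1, Eif5a2 and Eif5b. Shares of all rows for the counts in this paragraph are not given here, so these counts describe the members and set them apart from no other genes.

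Other genes of translation were counted from lists in the same fit, to be read beside the 11.3% of all rows and 20.8% of the brighter rows that rose at P3 against fed. Of 13 measured genes of elongation and termination, 6 rose and 0 fell at P3 against fed, with a median of 0.51. The 4 of smallest adjusted p were Eef1d (1.57 ± 0.19), a subunit of the exchange factor for elongation factor 1A, Eef1e1 (1.07 ± 0.19), Etf1 (1.02 ± 0.21), the release factor, and Eefsec (0.75 ± 0.17), the elongation factor for selenocysteine. Eef1e1 is in the list by its symbol, and its product is not itself an elongation factor. Among 15 measured partners and regulators of initiation, a mixed list that holds repressors such as Pdcd4 as well, 8 rose and 1 fell (median 0.59). They included Ltv1 (1.93 ± 0.17), a factor of small subunit assembly, Bzw2 (1.36 ± 0.20), and Dhps (1.28 ± 0.19) and Dohh (1.08 ± 0.17), the enzymes that make hypusine on eIF5A. Of 8 measured mitochondrial translation factors, limma called 0 in either direction at P3 against fed (median 0.14), and its unadjusted p was below 0.05 for 2.

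Of 20 measured genes of the stress response that follows eIF2 phosphorylation, 10 rose and 2 fell at P3 against fed (median 0.43). At P3r2 against P3, 9 fell and 7 rose, where 7.94% of all rows fell and 10.5% rose, and 14% and 19.1% of the brighter rows. Ppp1r15a, which brings a phosphatase to eIF2 alpha, differed by 2.28 ± 0.17 at P3 and by -2.34 ± 0.17 on re-feeding. Trib3 (2.75 ± 0.23 and -2.65 ± 0.23), Cebpb (2.12 ± 0.14 and -1.72 ± 0.14) and Atf3 (3.16 ± 0.22 and -2.64 ± 0.22), regulators induced in that response, followed the same course. These 4 had the smallest adjusted p of the list at P3. Other genes of the list were named after their values were seen. The 2 that fell at P3 took the opposite course: Atf5 (-1.81 ± 0.27 and 1.60 ± 0.27), a related factor, and Dnajc3 (-1.44 ± 0.15 and 1.51 ± 0.15). Asns rose at P3 (0.80 ± 0.22) and again on re-feeding (0.96 ± 0.22). Ddit3, Fgf21, Psat1 and Phgdh were not called at P3. In the mTORC1 list 5 of 25 measured genes rose and 4 fell at P3 (median 0.24), shares near the 20.8% and 14.5% of the brighter rows. Ddit4, an inhibitor of mTORC1, differed by 4.37 ± 0.18, Flcn by 1.53 ± 0.16 and Lamtor3 by 1.23 ± 0.17, which act on the lysosomal surface where the complex is activated, and Castor2, a relative of the arginine sensor, by -1.24 ± 0.19. At phase 2, 4 of these genes rose and 6 fell, among them, named after its values were seen, Mtor itself (-1.33 ± 0.23). Of all rows 6.13% rose and 6.58% fell at phase 2, and of the brighter rows 9.36% and 12.4%.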

How the data were processed

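Liver RNA of 16 rats was measured on 1 array each. The submitters' processing notes name GCOS and Expression Console 1.1 as the software behind the deposited log2 signals, of which the authors gave 1 per transcript cluster and array. The sources used here do not give the summarisation, background correction or genome build, and base 2 was inferred from the range of values (0.836 to 13.6). Of the rows, 534 below the first annotated identifier were left out and 18884 were tested. Groups come from the sample labels. One limma 3.58.1 model in R 4.3.3, fitting 4 group means to all 16 arrays without further scaling, gave 5 two-sided contrasts with Benjamini-Hochberg adjustment over all rows, and it was tested on simulated data. Per-array values are given for called members whose groups did not overlap and whose change was among the 4 largest in a direction, and for 1 member of each role or more; a few others were added for their role. Members and lists were chosen with earlier results of these data known. Symbols come from the array annotation, and promoters and gene spans from RefSeq (GRCr8). Near-identical gene copies may share probes. Only 4 arrays a group limit the precision, and p-values measure the spread between these animals.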

Additional observations from a re-analysis of the deposited data

Results flagged for a closer look

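In 13 of 128 sets of 4 arrays (1 gene in 1 group), the highest or lowest array lay far from the other 3 by Dixon's test, where chance gives about 5% of sets. Of these, 9 were low values of fed 2: Eif1ad at a log2 signal of 5.05 (nearest other fed array 6.55), Eif2s1 at 7.02 (8.48), Eif2s2 at 8.46 (9.44), Eif5 at 7.81 (8.28), Eif2b2 at 5.18 (6.42), Eif2ak1 at 7.36 (8.21), Eif3l at 6.90 (7.59), Eif4a2 at 9.74 (10.27) and Eif4e at 7.36 (8.53). In the array P2 4, Eif2ak4 was low at 4.45 (nearest 4.65), Eif4h was low at 8.11 (8.83) and Eif5b was high at 5.03 (4.46). In the array P3 2, Eif4e was low at 8.71 (9.20).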

How the results depend on the processing

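Over 160 member fold changes and 29 alternatives, 4635 values were obtained. No called value reversed, 85 lost and 129 gained a call, and 79 changed sign with neither value called. The causes were not tested. Some alternatives could not reverse a value. The threshold of 0.01 keeps every fold change and can only lose calls. Leaving out an array of a group outside the comparison keeps the fold change too. The 4635 values therefore include repeats, for which the absence of a reversal carries no information. Where no share of all rows under the same setting stands beside a count below, the count is not a result about the members. After quantile normalization 2 members were lower at P3 against fed, 16 were lower at P3r2 against P3 and 0 were higher at P3r2 against fed. With array weights 5 were lower at P2 and 2 at P3 against fed, and 5 were higher at P3r2 against fed. Fits of only the groups compared gave 0 lower at P3 against P2 and 2 higher at P3r2 against P3. At a threshold of 0.01, 4 were higher at P2 against fed, 0 lower at P3 against P2 and 0 higher at P3r2 against fed. With the length trend taken out, 6 were lower at P2 and 2 at P3 against fed, and 13 at P3r2 against P3. The shares of 13286 rows lower in that fit were 10.8%, 12.9% and 13.9%. With array spread as a covariate, chosen after seeing the data, 2 were lower at P3 against fed, 14 at P3r2 against P3 and 1 at P3r2 against fed. The shares of all rows lower in that fit were 10.3%, 11.8% and 1.39%. No pairing by replicate number was seen (median correlation -0.01 over 24 same-numbered pairs, range -0.40 to 0.26). Over 72 pairs with different numbers the median was 0.005 (range -0.31 to 0.31). A small effect shared by number could go unseen in these medians. With a replicate block, 1 member was higher at P3r2 against fed. Leaving out 1 array gave 5 to 10 higher and 2 to 6 lower at P2 against fed (6 without P2 3, 5 without P3 3), 20 to 24 higher and 1 to 2 lower at P3 against fed (2 without P2 4 or P3 1), 10 to 17 higher and 0 to 1 lower at P3 against P2, 1 higher and 6 to 11 lower at P3r2 against P3, and 0 to 4 higher and 0 lower at P3r2 against fed (1 without fed 2 or P3r2 2).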
